A study of Homo sapiens with 6 samples.

Results

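The genes described here are 10 ligands, co-receptors and inhibitors of the Nodal and activin pathway: NODAL, GDF3, INHBA, INHBE, TDGF1, LEFTY1, LEFTY2, CER1, FST and SMAD7. They were listed by name, with earlier results of these data known, and are 10 of the 53715 genes in the count table. All 10 passed the filter on low counts, which kept 19156 genes for testing. Poly(A) RNA was sequenced from primed H9 cells, an established line of human embryonic stem cells. Each of 3 groups had 2 libraries. ASO-Ctr cells received a non-targeting antisense oligonucleotide, sO-L1 cells a sense oligonucleotide of the LINE1 (L1) retrotransposon, and ASO-L1 cells the antisense oligonucleotide against L1. The oligonucleotides carried a 6-FAM dye and were given at 25 nM. All 3 groups were also exposed to ISRIB at 0.7 uM, emricasan at 5 uM and the ROCK inhibitor Y-27632 at 10 uM, which were taken off after 24 h. FAM-positive cells were sorted at 48 h, so each library is RNA of cells that took up an oligonucleotide of one line. L1 RNA itself was not analysed here, so the knockdown is known from the labels alone. The labels name mTeSR as the medium in one place and RSeT in another, and whether the replicates were separate cultures is not stated, so the p-values measure the spread between these libraries, which may be technical.

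Nodal and the activins are secreted ligands of the TGF-beta superfamily that bind type I and type II activin receptors, and Nodal also needs an EGF-CFC co-receptor such as TDGF1 (Cripto). The receptors phosphorylate SMAD2 and SMAD3, which enter the nucleus with SMAD4 and act with partners such as FOXH1. Several targets of the pathway are its own inhibitors, among them the LEFTY proteins, CER1 and SMAD7, and the pathway is known for maintaining the primed pluripotent state and for inducing mesendoderm.

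Library totals ranged from 18897936 to 67192937 counts, the shallowest being ASO-Ctr replicate 1, and 3 counts, the floor used for detection, corresponded to 0.0437 to 0.159 CPM (counts scaled to a common library total). Levels are given as CPM, and differences as log2 fold changes with a standard error (SE) from 1 edgeR quasi-likelihood fit of all 6 libraries with the replicate number as a block, a term that removes what same-numbered libraries share. A gene was called at a Benjamini-Hochberg adjusted p under 0.05 over all genes tested. The block matters for the number of calls: 4412 genes were called in ASO-L1 against sO-L1 with it and 352 without it. The pluripotency markers (10 genes, POU5F1 and SOX2 among them) summed to 10100 to 10500 CPM in ASO-Ctr, 10400 to 10700 in sO-L1 and 10300 in both ASO-L1 libraries. Within this sum, 3 of the 10 rose against sO-L1 (SOX2, ZIC2 and SALL4) and 3 fell (NANOG, DNMT3B and L1TD1), by 0.25 or less on the log2 scale, and none was called by edgeR without the block. With the block, 10.3% of all genes tested were called higher there and 12.7% lower. Against ASO-Ctr SALL4 (0.05 ± 0.05, adjusted p = 0.561) and L1TD1 (-0.06 ± 0.05, adjusted p = 0.447) did not pass. L1TD1 was higher in sO-L1 than in ASO-Ctr, by 0.18 ± 0.05 (adjusted p = 0.0308). Fibroblast markers summed to 140 to 158, 138 to 163 and 167 to 176 CPM in the same order, with LUM and DCN at 3 counts or fewer in every library and COL1A1 higher in ASO-L1 than in sO-L1 by 0.63 ± 0.06 on the log2 scale (adjusted p = 3.3e-09), COL1A2 at -0.09 ± 0.05 (adjusted p = 0.191) and POSTN at 0.21 ± 0.13 (adjusted p = 0.276). Mesendoderm and endoderm markers summed to 5.52 to 5.73, 5.93 to 6.43 and 4.23 to 4.93 CPM, with SOX17 at 0 to 5 counts. The largest part of this sum was FOXA2 (means 3.41, 3.83 and 1.78 CPM). With the block, FOXA2 was the 1 gene of the 6 tested called lower against sO-L1. EOMES (means 0.182, 0.327 and 0.736 CPM) was the 1 called higher. The sums were 309 to 324, 339 to 345 and 349 to 362 CPM for neuroectoderm markers, and 9.61 to 10.8, 10.6 to 11.1 and 10.1 to 10.6 CPM for trophoblast and amnion markers, with HAND1 at 0 in all 6 libraries. Nearly all of the first sum was NES (means 314, 338 and 353 CPM), with PAX6, SOX1, ZIC1 and HES5 at 2.99 CPM or less. Nearly all of the second was KRT7 (10.1, 10.7 and 10.1 CPM). NES was higher in ASO-L1 than in ASO-Ctr by 0.17 ± 0.05 (adjusted p = 0.00569). It was not called against sO-L1 or without the block. Extraembryonic endoderm markers summed to 251 to 266, 237 to 279 and 238 to 262 CPM, with GATA4 and GATA6 at 4 counts or fewer. Nearly all of this sum was LAMA1 (means 114, 109 and 103 CPM) and COL4A1 (142, 147 and 146 CPM). LAMA1 was at -0.15 ± 0.05 against ASO-Ctr (adjusted p = 0.0266), a call lost without the block. The part of these marker levels in the results was not tested. In these bulk libraries fewer cells with a transcript and less of it per cell cannot be told apart.

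In ASO-L1 against sO-L1, 4 of the 10 genes rose (INHBE, FST, INHBA and SMAD7), 2 fell (LEFTY1 and LEFTY2) and 4 did not pass the test (NODAL, GDF3, TDGF1 and CER1). Of all genes tested, 23.0% were called, 10.3% higher and 12.7% lower. The same 4 genes rose and the same 2 fell against ASO-Ctr, where 21.5% of all genes were called, 9.88% higher and 11.6% lower. Both comparisons use the same ASO-L1 libraries, so the second is no independent repeat of the first. The median log2 fold change of the 10 genes was 0.02 against sO-L1 and -0.11 against ASO-Ctr, beside 0 over all genes in both. Without the block, 5 of the 10 were called in each: LEFTY2 was lost against sO-L1 and SMAD7 against ASO-Ctr, while 1.84% of all genes were called against sO-L1 (0.914% higher, 0.924% lower) and 1.95% against ASO-Ctr (0.903% higher, 1.05% lower). With each library left out in turn, 5 to 7 of the 10 genes were called against sO-L1, the 7 including NODAL without ASO-Ctr replicate 2, and 6 against ASO-Ctr. DESeq2 called 4 of the 10 against sO-L1, where LEFTY2 did not pass (adjusted p = 0.112) and INHBA, NODAL and CER1 received no adjusted p, and 6 against ASO-Ctr. The genome-wide count against sO-L1 moved more, from 4412 to 2041 without ASO-L1 replicate 1, 2344 without sO-L1 replicate 2 and 1802 without its replicate 1. Against ASO-Ctr it moved from 4120 to 2378 without ASO-Ctr replicate 1 and 2336 without ASO-L1 replicate 1.

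**Figure D1:**
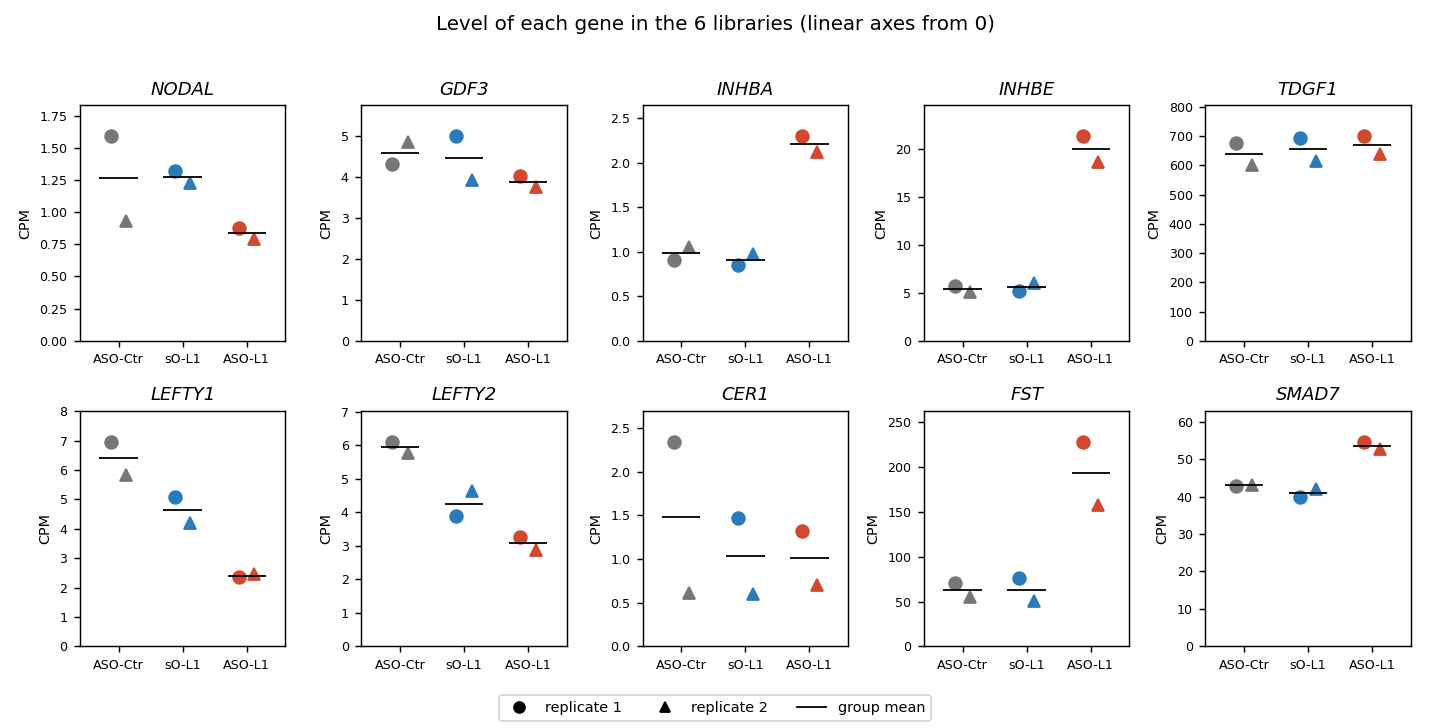
Level of each of the 10 genes in CPM (vertical axes, linear from 0) in ASO-Ctr, sO-L1 and ASO-L1; circles are replicate 1, triangles replicate 2 and lines the mean of 2 libraries. INHBA, INHBE, FST and SMAD7 lie higher in both ASO-L1 libraries than in the other 4, LEFTY1 and LEFTY2 lie lower, and CER1 separates by replicate number.

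Among the ligands, the 2 activin subunit genes rose and the Nodal-type ligands did not pass the test. INHBE, which encodes the beta E subunit of activin E and is best known from liver, stood at 5.68 and 5.09 CPM for ASO-Ctr, 5.17 and 6.00 for sO-L1 and 21.3 and 18.6 for ASO-L1. Both ASO-L1 libraries were far above the other 4, which overlapped. INHBE rose 3.49-fold against sO-L1, a log2 fold change of 1.80 ± 0.10 (SE; adjusted p = 4.5e-20, and 0.000786 without the block). Against ASO-Ctr it rose by 1.90 ± 0.10 (adjusted p = 4.8e-20, and 0.000766 without the block). By p it ranked 10 of all genes against sO-L1 and 11 against ASO-Ctr, and 4 in both without the block.

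INHBA encodes the beta A subunit, which forms activin A as a homodimer. Its level was 0.903 and 1.06 CPM for ASO-Ctr, 0.851 and 0.973 for sO-L1 and 2.30 and 2.12 for ASO-L1. The groups that overlapped were the 2 controls, and the ASO-L1 libraries stood above both. It rose by 1.26 ± 0.21 against sO-L1 (2.39-fold, adjusted p = 1.1e-05, and 0.0247 without the block; DESeq2 gave an unadjusted p of 0.000549 and no adjusted p) and by 1.12 ± 0.22 against ASO-Ctr (2.17-fold, adjusted p = 0.000114, and 0.0381 without the block). Per kilobase of exon, INHBA was the least abundant of the 10 in all 3 groups. In CPM its ASO-L1 mean (2.21) was above those of CER1 (1.01) and NODAL (0.836).

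NODAL was near 1 CPM throughout: 1.59 and 0.933 for ASO-Ctr, 1.32 and 1.23 for sO-L1 and 0.877 and 0.795 for ASO-L1. These levels rest on 30 and 64 counts, 45 and 76, and 40 and 46. Both ASO-L1 libraries were the lowest of the 6, but the difference did not pass the test against sO-L1 (-0.62 ± 0.25, 95% interval -1.12 to -0.12, adjusted p = 0.0645, and 0.331 without the block). Against ASO-Ctr it was -0.47 ± 0.27 (interval -1.01 to 0.06, adjusted p = 0.218). The comparison with sO-L1 passed when ASO-Ctr replicate 2 was left out of the shared fit (adjusted p = 0.047). The intervals allow no change against ASO-Ctr, and a fall of more than 1 log2 unit in both.

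GDF3, a Nodal-related ligand expressed in pluripotent cells, measured 4.30 and 4.85 CPM for ASO-Ctr, 4.99 and 3.91 for sO-L1 and 4.01 and 3.75 for ASO-L1. The ASO-L1 libraries lay below ASO-Ctr and overlapped sO-L1. Its log2 fold change was -0.17 ± 0.14 against sO-L1 (interval -0.44 to 0.1, adjusted p = 0.396) and -0.29 ± 0.14 against ASO-Ctr (interval -0.57 to -0.02, adjusted p = 0.129).

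TDGF1, the co-receptor, was the most abundant of the 10 genes and was tightly bounded in the fit with the block. It stood at 678 and 602 CPM for ASO-Ctr, 695 and 615 for sO-L1 and 700 and 639 for ASO-L1, with replicate 1 above replicate 2 in each group and all groups overlapping. The log2 fold change was 0.03 ± 0.05 against sO-L1 (interval -0.06 to 0.12, adjusted p = 0.671, and 0.902 without the block). Against ASO-Ctr it was 0.07 ± 0.05 (interval -0.03 to 0.16, adjusted p = 0.341, and 0.779 without the block). Both intervals rest on the block. TDGF1 has a near-identical copy, TDGF1P3, and their reads can be split wrongly: over a coding sequence of 567 bases they differ at 7, with identical stretches of up to 257 bases. TDGF1P3 held 4.11% to 4.46% of the counts of both in the 6 libraries, so the split was alike across groups.

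LEFTY1 and LEFTY2 are secreted antagonists of Nodal, induced by the signal they block. They are also close copies, so how far their reads can be told apart bears on their separate values. Over the coding sequence, read from GENCODE release 29 transcripts on GRCh38 as the longest open reading frame and 1101 bases long in each, 31 bases differ (97.2% identity) and the longest identical stretch is 300 bases. Reads inside such a stretch fit both genes, and how the authors' counting treated them is not given in the sources used here.

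LEFTY1 was measured at 6.96 and 5.83 CPM for ASO-Ctr, 5.08 and 4.20 for sO-L1 and 2.35 and 2.47 for ASO-L1. No pair of groups overlapped, with ASO-Ctr highest and ASO-L1 lowest. LEFTY1 fell by 0.92 on the log2 scale against sO-L1 (SE 0.14, adjusted p = 1.8e-06, and 0.0314 without the block). Against ASO-Ctr it fell by 1.38 (SE 0.14, adjusted p = 8.4e-11, and 0.00825 without the block), a level 2.6-fold lower.

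LEFTY2 was measured at 6.11 and 5.79 CPM for ASO-Ctr, 3.88 and 4.64 for sO-L1 and 3.27 and 2.88 for ASO-L1. The order of the groups was that of LEFTY1, again with no overlap. LEFTY2 fell by 0.94 against ASO-Ctr (SE 0.14, adjusted p = 6.6e-07, and 0.0252 without the block). Against sO-L1 it fell by 0.50 (SE 0.14, adjusted p = 0.0064), and this call depended on the fit: the adjusted p was 0.175 without the block, 0.112 in DESeq2 and 0.059 after thinning to the shallowest library, and it was 0.422 when sO-L1 replicate 2 was left out and 0.214 when ASO-L1 replicate 2 was. The sum of both genes does not depend on how reads were split between them. It would depend on whether reads that fit both were dropped or counted for each, which is not given. This sum was 13.1 and 11.6 CPM for ASO-Ctr, 8.95 and 8.84 for sO-L1 and 5.61 and 5.36 for ASO-L1. The ratio of LEFTY1 to LEFTY2 counts was 1.14 and 1.01, 1.31 and 0.906, and 0.718 and 0.856 in the same order, lowest in the ASO-L1 libraries.

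CER1, a secreted antagonist of Nodal, BMP and WNT ligands, followed the replicate number and not the group. It was 2.34, 1.47 and 1.32 CPM in replicate 1 of ASO-Ctr, sO-L1 and ASO-L1, and 0.612, 0.600 and 0.708 in replicate 2. All groups overlapped, and all 3 libraries of replicate 1 were above all 3 of replicate 2. The log2 fold change was 0.01 ± 0.27 against sO-L1 (interval -0.53 to 0.54, adjusted p = 0.987) and -0.34 ± 0.27 against ASO-Ctr (interval -0.88 to 0.21, adjusted p = 0.42). The interval against sO-L1 holds changes of around 0.5 in either direction.

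FST (follistatin), a secreted protein that binds activins and keeps them from their receptors, had the smallest p of the 10 genes in the fit with the block, and INHBE in the fit without it. It was 71.1 and 54.8 CPM for ASO-Ctr, 76.4 and 50.4 for sO-L1 and 228 and 158 for ASO-L1. Replicate 1 was the higher library in each group, and the lower ASO-L1 library was still above every control library. FST rose by 1.61 ± 0.05 against sO-L1, 3.06-fold (adjusted p = 5.6e-29, and 0.0118 without the block), and by 1.59 ± 0.05 against ASO-Ctr, 3.02-fold (adjusted p = 4.5e-28, and 0.013 without the block). It ranked 2 by p of all genes tested against sO-L1 and 1 against ASO-Ctr with the block, and 65 and 58 without it. The log2 ratio was 1.58 within replicate 1 and 1.65 within replicate 2 against sO-L1, so the difference between replicates in level was shared by the groups.

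SMAD7, the inhibitory SMAD that binds active type I receptors and brings SMURF ubiquitin ligases to them, changed the least of the called genes. It was 42.7 and 43.2 CPM for ASO-Ctr, 39.8 and 42.1 for sO-L1 and 54.6 and 52.6 for ASO-L1. Both ASO-L1 libraries were above all 4 controls, and sO-L1 lay just below ASO-Ctr. SMAD7 rose by 0.39 ± 0.06 against sO-L1 (1.31-fold, adjusted p = 4.8e-07, and 0.0374 without the block). Against ASO-Ctr it rose by 0.32 ± 0.06 (1.25-fold, adjusted p = 2.7e-05), a call lost without the block (adjusted p = 0.0708).

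**Figure D2:**
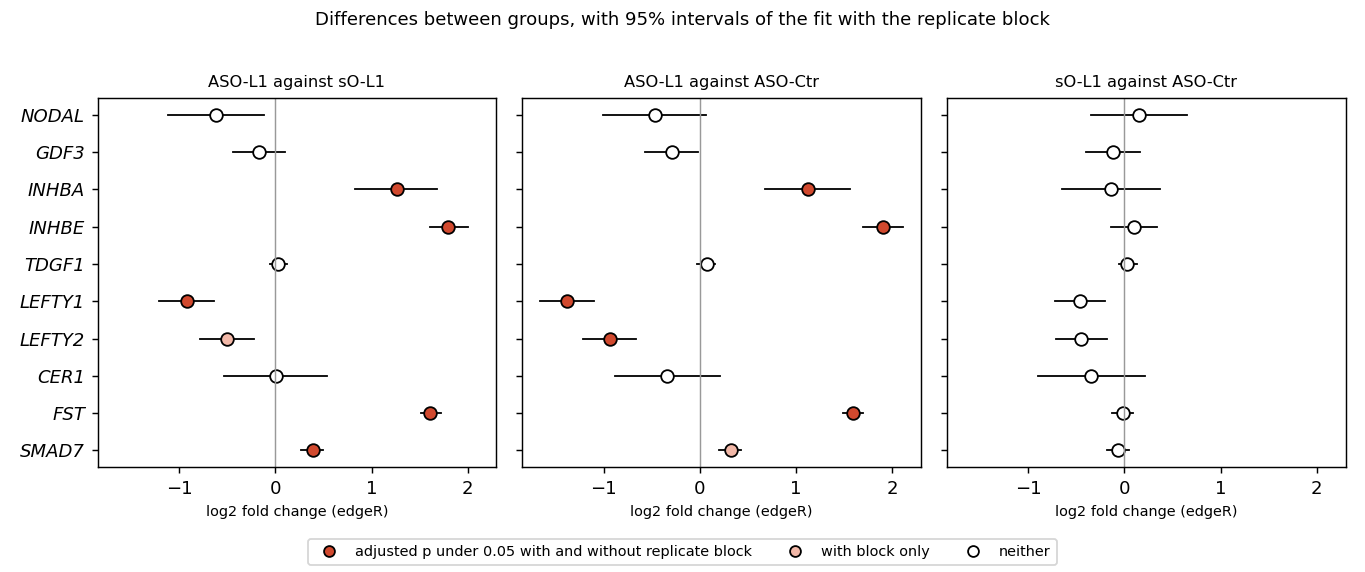
Log2 fold change of each gene (point) with its 95% interval (horizontal line; dark points passed the test with and without the replicate block, light points with it only, white points with neither) in the comparisons of ASO-L1 with sO-L1, of ASO-L1 with ASO-Ctr, and of sO-L1 with ASO-Ctr. INHBE (1.80 and 1.90 in the ASO-L1 comparisons), FST (1.61 and 1.59) and INHBA (1.26 and 1.12) lie to the right, LEFTY1 (-0.92 and -1.38) and LEFTY2 (-0.50 and -0.94) to the left.

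FST, INHBA and SMAD7 rose together, and the RefSeq promoter table (GRCh38.p14) holds the 250 bases before a start of each. They are shown 5′ to 3′ along the gene, with CAGAC, the 5-letter core that SMAD3 and SMAD4 can bind, in capitals wherever it occurs on either strand (as CAGAC or GTCTG):
FST (chr5:53480379-53480628, plus strand): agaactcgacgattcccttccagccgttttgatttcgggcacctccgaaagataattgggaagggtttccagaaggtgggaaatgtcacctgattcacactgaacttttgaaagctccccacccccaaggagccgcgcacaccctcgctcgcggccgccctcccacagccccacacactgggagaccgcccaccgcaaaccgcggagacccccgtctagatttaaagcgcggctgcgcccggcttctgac
INHBA (chr7:41703091-41703340, minus strand): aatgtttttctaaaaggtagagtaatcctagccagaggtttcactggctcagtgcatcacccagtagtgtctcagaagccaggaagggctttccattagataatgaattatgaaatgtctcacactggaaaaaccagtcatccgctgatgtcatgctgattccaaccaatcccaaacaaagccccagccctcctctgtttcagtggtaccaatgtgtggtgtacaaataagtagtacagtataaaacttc
SMAD7 (chr18:48950966-48951215, minus strand): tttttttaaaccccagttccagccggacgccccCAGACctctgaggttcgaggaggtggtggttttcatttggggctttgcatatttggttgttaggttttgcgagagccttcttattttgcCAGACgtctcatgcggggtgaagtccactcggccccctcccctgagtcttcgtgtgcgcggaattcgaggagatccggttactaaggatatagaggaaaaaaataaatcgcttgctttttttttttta
The FST and INHBA windows hold no CAGAC. The SMAD7 window holds 2, with first bases 217 and 128 bases before the start; 2 other SMAD7 starts in the table hold 1 and 0. Of 35116 promoter windows of the same length, 38% hold at least 1 CAGAC and 8.84% at least 2, so the letters are common. In all, 6 of the 10 genes matched the table: NODAL and CER1 hold 1 CAGAC each and GDF3 none. AATNCACA, a FOXH1-type motif, occurs in GDF3 and CER1, 56 and 154 bases before the start, and in 2.89% of all windows. TGATGNAA, the letters of an ATF4-type composite site, occurs in GDF3 alone of the 6, 38 bases before the start, and in 3.14% of all windows; the cyclic AMP element TGACGTCA occurs in none of the 6 and in 1.65% of all windows. Motifs were searched on both strands, and a match is a description of letters, not a bound site. LEFTY1, LEFTY2, TDGF1 and INHBE have no window here.

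In sO-L1 against ASO-Ctr, which compares the sense oligonucleotide with the non-targeting control, none of the 10 genes was called by edgeR with or without the block, beside 1.72% of all genes with it (0.658% higher and 1.06% lower) and 0% without it, where 569 genes had an unadjusted p under 0.05. Of the 10, 2 (LEFTY1 and LEFTY2) had an unadjusted p under 0.05, and limma-voom called 0 of them. DESeq2 gave an adjusted p to 3 of the 10 here, TDGF1, FST and SMAD7, and called none of those, and its unadjusted p was 0.0284 for LEFTY1 and 0.0298 for LEFTY2. DESeq2 called 125 genes in all. The genome-wide count of 330 was 87 without ASO-Ctr replicate 1, 9 and 178 without sO-L1 replicate 1 or 2, and 496 when ASO-L1 replicate 2 was left out. LEFTY1 and LEFTY2 came closest, both lower in sO-L1 with no overlap between groups: -0.46 ± 0.13 for LEFTY1 (interval -0.72 to -0.2, adjusted p = 0.0526) and -0.45 ± 0.13 for LEFTY2 (interval -0.71 to -0.18, adjusted p = 0.0704). Their calls depended on the fit. LEFTY1 passed in the fit of only the 4 libraries compared (adjusted p = 0.0146) and when either ASO-L1 library was left out (0.0187 for replicate 1 and 0.0172 for replicate 2), and LEFTY2 passed in the same fits (0.034, 0.0404 and 0.0371). Without the block the adjusted p was 1 for both. The 3 genes that rose most in ASO-L1 were near 0 here: -0.02 ± 0.05 for FST (interval -0.13 to 0.09), 0.10 ± 0.12 for INHBE (interval -0.14 to 0.34) and -0.14 ± 0.25 for INHBA (interval -0.65 to 0.37). SMAD7 was at -0.07 ± 0.06, TDGF1 at 0.03 ± 0.05, NODAL at 0.15 ± 0.25, GDF3 at -0.12 ± 0.14 and CER1 at -0.35 ± 0.27. Groups did not overlap for 3 of the 10 genes here (LEFTY1, LEFTY2 and SMAD7), 7 against sO-L1 and 8 against ASO-Ctr in the ASO-L1 comparisons, beside 29.7%, 47.1% and 48.6% of all genes.

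The authors' deposited table of ASO-L1 minus sO-L1 lists the same 6 genes under an adjusted p of 0.05. It gives log2 fold changes of 1.62 for FST, 1.8 for INHBE, 1.25 for INHBA, 0.39 for SMAD7, -0.91 for LEFTY1 and -0.5 for LEFTY2. FST ranks 1 and INHBE 13 by p among the 16753 genes of the authors' deposited table. NODAL is at -0.61 there with an adjusted p of 0.0986.

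Per kilobase of exon (GENCODE 29, basic transcripts), a scale on which levels of different genes can be set side by side, TDGF1 led in every group, at 250 ± 21 CPM per kb in ASO-Ctr and 261 ± 16.8 in ASO-L1 (SD, n = 2). FST came next, at 22.6 ± 4.14 in ASO-Ctr, 22.8 ± 6.61 in sO-L1 and 69.3 ± 17.8 in ASO-L1, followed by SMAD7 at 9.47 ± 0.078, 9.03 ± 0.359 and 11.8 ± 0.312. The middle of the order differed between groups. In ASO-Ctr it ran LEFTY1 (3.93 ± 0.491), GDF3 (3.69 ± 0.314), LEFTY2 (2.59 ± 0.0987) and INHBE (2.22 ± 0.172), of which LEFTY1 and GDF3 lie within their spread of each other. In ASO-L1 INHBE stood next at 8.21 ± 0.786, then GDF3 at 3.13 ± 0.148, LEFTY1 at 1.48 ± 0.0522 and LEFTY2 at 1.34 ± 0.12, the last 2 within their spread. CER1, NODAL and INHBA were lowest in ASO-L1, at 0.835 ± 0.356, 0.502 ± 0.0348 and 0.335 ± 0.0193. CER1 and NODAL lie within the spread of CER1. FST stood above INHBA and INHBE, and LEFTY1 and LEFTY2 above NODAL, in all 3 groups.

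**Figure D3:**
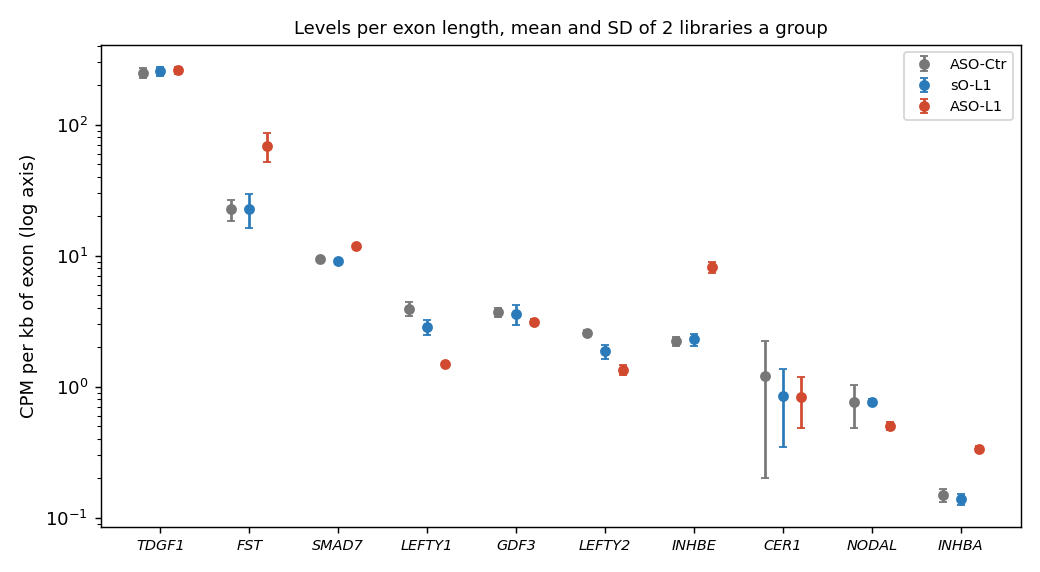
Mean level per kilobase of exon (CPM per kb, log axis) of the 10 genes in each group; points are the mean and bars the SD of 2 libraries. TDGF1 is highest (250 to 261) and INHBA lowest (0.138 to 0.335) in all groups, and INHBE moves from 2.22 in ASO-Ctr to 8.21 in ASO-L1.

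Of 68 other genes of the pathway and its BMP branch, in lists by role, 60 were tested. Against sO-L1 7 rose, 12 fell and 41 did not pass, beside the 23.0% of all genes called. Without the block 1 rose and 3 fell (FOXA2, SMURF2 and ID3). In place of 19 calls there were 11 when either sO-L1 library was left out and 12 when ASO-L1 replicate 1 was. Against ASO-Ctr 7 rose and 12 fell, beside 21.5% of all genes called, and 4 were called without the block, beside 1.95%. In sO-L1 against ASO-Ctr none of the 60 was called by edgeR or limma-voom, nor any of the 25 with an adjusted p in DESeq2, and 11 had an unadjusted p under 0.05 in edgeR.

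None of the 7 tested receptor genes, ACVR1B and ACVR2B among them, was called by edgeR in any comparison. Of all genes, 23.0% were called against sO-L1, 21.5% against ASO-Ctr and 1.72% between the controls. In the same order, 0, 2 and 1 of the receptor genes had an unadjusted p under 0.05. Whether so short a list differs from all genes was not tested. The limma-voom fit called 0 as well, and DESeq2 0 of the 6, 6 and 2 to which it gave an adjusted p. Of the 8 other ligand and processing genes, FURIN, a protease that cleaves ligand precursors, fell by 0.19 against sO-L1 (SE 0.06, adjusted p = 0.0184, and not called without the block). INHBC, a further activin subunit gene, was at 1.27 ± 0.54 against sO-L1 and did not pass (adjusted p = 0.0888), with raw counts of 1 and 13 for ASO-Ctr, 2 and 13 for sO-L1, 13 and 23 for ASO-L1. The NODAL co-receptor gene CFC1 and the ligand gene GDF1 had 0 counts in all libraries, and INHBB, which was not tested, had 4 to 10. Of the 3 other extracellular inhibitors, FSTL1, a follistatin-like secreted protein, fell by 0.14 against sO-L1 (SE 0.05, adjusted p = 0.0291). Against ASO-Ctr FSTL1 was at -0.13 ± 0.05 and did not pass (adjusted p = 0.0504).

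Of 6 transducers against sO-L1, FOXH1, the DNA-binding partner of SMAD2, rose by 0.18 ± 0.06 (adjusted p = 0.0239) and ZFYVE9, which presents SMAD2 to the receptors, fell by 0.35 (SE 0.06, adjusted p = 6.5e-06). Neither was called without the block. Of 10 intracellular inhibitors 2 rose and 3 fell, beside 10.3% and 12.7% of all genes. The SMAD co-repressor SKI rose by 0.23 ± 0.05 and the ubiquitin ligase SMURF1 by 0.20 ± 0.06. SMURF2, which works with SMAD7, fell by 0.49 (SE 0.06, adjusted p = 9.4e-09, and 0.0343 without the block). The co-repressors TGIF2 and SKIL fell by 0.37 (SE 0.06, adjusted p = 1.2e-06) and 0.14 (SE 0.05, adjusted p = 0.0245). SMURF2 and TGIF2 fell against ASO-Ctr as well, by 0.51 and 0.47 (adjusted p = 0.0318 and 0.0281 without the block). The other inhibitors named here did not pass against ASO-Ctr. SKI was at 0.09 ± 0.05 there (adjusted p = 0.175), SMURF1 at 0.03 ± 0.06 (adjusted p = 0.766) and SKIL at -0.09 ± 0.05 (adjusted p = 0.167).

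Genes often listed as targets moved both ways, 3 higher and 2 lower of 9 tested against sO-L1, beside 10.3% and 12.7% of all genes. FOXA2, an endoderm transcription factor, was 3.66 and 3.16, 3.82 and 3.84, and 1.95 and 1.61 CPM for ASO-Ctr, sO-L1 and ASO-L1. It fell by 1.13 against sO-L1 (SE 0.16, adjusted p = 3e-07, and 0.0213 without the block) and by 0.93 against ASO-Ctr (SE 0.17, adjusted p = 3.2e-05, and 0.0428 without the block).

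OTX2 and EOMES, which mark neural and mesendodermal fates among others, and NANOG were not called without the block. OTX2 rose by 0.49 ± 0.05 and EOMES, at 0 to 38 counts, by 1.13 ± 0.41 (adjusted p = 0.0406) against sO-L1. NANOG, a pluripotency factor and SMAD2/3 target, fell by 0.17 (SE 0.05, adjusted p = 0.0128). In the BMP branch, 1 of 17 genes rose and 4 fell against sO-L1, beside 10.3% and 12.7% of all genes. The BMP targets split. ID2 rose by 0.30 ± 0.05 (adjusted p = 3e-05, and 0.144 without the block). ID3 fell by 0.46 (SE 0.05, adjusted p = 5.9e-10, and 0.0183 without the block). ID1 fell by 0.44 (SE 0.07, adjusted p = 1.8e-06, and 0.168 without the block). The ligand BMP7 fell by 0.56 (SE 0.12, adjusted p = 0.000507).

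**Figure D4:**
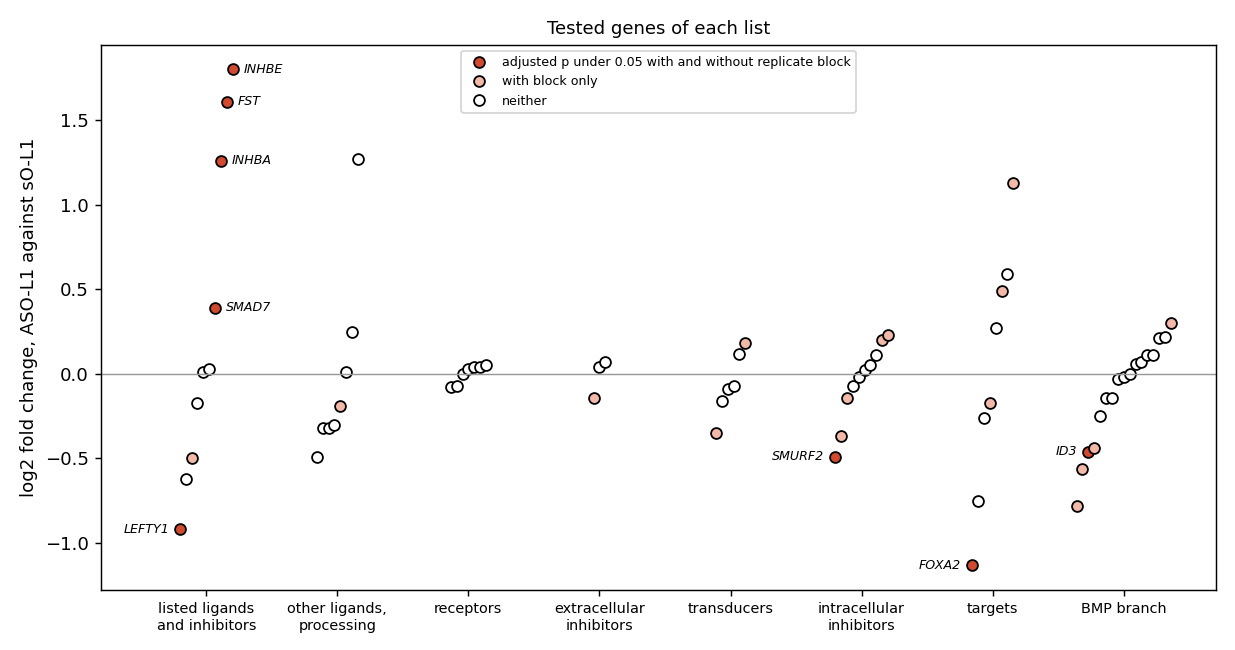
Log2 fold change in ASO-L1 against sO-L1 of the tested genes (1 of the targets not shown), in the 10 genes described here and 7 further lists by role; dark points passed with and without the replicate block, light points with it only, and white points with neither. The receptors sit close to 0, and INHBE (1.80) and FST (1.61) are the highest called genes shown.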

How the data were processed

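Poly(A) RNA of 6 libraries was sequenced with a directional kit. The submitters' processing notes name Trim Galore 0.4.0 for trimming, TopHat2 2.0.13 and hg19 for mapping, and featureCounts (Subread 1.5.0) for counting. The deposited values are raw counts per gene symbol, and the table's name says that duplicates were removed. The strand and multi-mapping settings are not given in the sources used here, so overlapping, antisense and copied genes are uncertain. Batch-corrected log2 values stand in a further table deposited by the authors: 82.6% of its genes have equal means (within 0.02) in both replicate numbers, against 9.23% for log2 CPM from the counts. The authors also deposited p-values and log2 fold changes for ASO-L1 minus sO-L1, and their adjustment is not stated. The header of the count table stands 1 cell to the left of its values, and 6 of 6 columns named accordingly correlated best with their own column of the log2 table.

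The 92 spike-in rows (3.15e-06% of counts) were left out. Counts were filtered with filterByExpr (minimum count 10, minimum total 15), scaled by TMM and tested in R 4.3.3 with edgeR 4.0.16 (robust quasi-likelihood, group and replicate number, all 6 libraries, 2 residual degrees of freedom). The biological coefficient of variation was 0.0354 with the block and 0.0834 without. The block was used because the study's outputs include a batch-corrected table. No label ties a number to a batch. The difference between replicates 1 and 2 correlated across genes at 0.258 for ASO-Ctr with sO-L1, 0.191 for ASO-Ctr with ASO-L1 and 0.278 for sO-L1 with ASO-L1. Tested on simulated counts of ASO-L1 against sO-L1 (19156 genes), the fit recovered 70.5% of 95 genes changed 1.5-fold and 80% of 105 changed 2-fold, and called 8 unchanged genes. The simulation gave all genes the common spread of the fit with the block, and a difference between replicates that all groups shared. It therefore cannot show how the fit does where the replicate numbers share nothing or the spread is larger.

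All 10 genes are named in each comparison. Of each further list, up to 3 genes a direction with the smallest p among those called are named, as is any gene that makes up a count of 1, except that 1 target gene is counted in its list and not reported here. SOX17, COL1A1 and other markers, INHBC, INHBB, CFC1 and GDF1 were named after their values were seen. The genes, the lists by role and the marker lists were chosen with earlier results of these data known. Alternatives used limma 3.58.1 and DESeq2 1.42.0. Sequences came from GENCODE 29 and RefSeq tables and were read with Biopython 1.88.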

Additional observations from a re-analysis of the deposited data

How the results depend on the processing

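LEFTY1, INHBE and FST kept their calls against sO-L1 and ASO-Ctr under all alternatives run, as did SMAD7 against sO-L1, and INHBA and LEFTY2 against ASO-Ctr. INHBA kept its call against sO-L1 in the 14 alternatives that gave it an adjusted p. DESeq2 gave it none, and LEFTY2 did not pass in DESeq2 (adjusted p = 0.112), so DESeq2 called 4 of the 10 genes there. The labels do not establish the pairing, and without the replicate block 352, 374 and 0 genes were called for ASO-L1 with sO-L1, ASO-L1 with ASO-Ctr, and sO-L1 with ASO-Ctr in turn (4412, 4120 and 330 with it), 4 and 4 of the other pathway genes in the ASO-L1 comparisons (19 and 19 with it), and FST in sO-L1 against ASO-Ctr was at 0.02 (-0.02 with it). DESeq2 called 2355, 2436 and 125 genes. In sO-L1 against ASO-Ctr, limma-voom called 168 genes, the fit of only the 4 libraries compared 516, an adjusted p under 0.1 520, and thinning all libraries to the shallowest, an alternative chosen after seeing the data, 171. There, 1 of the 10 genes was called with upper-quartile scaling and 1 with no filter, and 2 with only the 4 libraries and 2 at an adjusted p under 0.1.

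With each library left out in turn, the lone library of a group being assumed to vary like the others, the counts of genes called ranged from 1802 to 4702, 2336 to 3693 and 9 to 496. Of the 10 genes, 5 to 7, 6 to 6 and 0 to 2 were called, and of the other pathway genes 11 to 20, 13 to 19 and 0 to 1. Signs turned only in comparisons where the gene was not called: CER1 ranged from -0.3 to 0.42 against sO-L1 (-0.03 in limma-voom and -0.05 thinned), from -0.75 to 0.1 against ASO-Ctr and from -0.76 to 0.09 in sO-L1 against ASO-Ctr. In the last comparison NODAL ranged from -0.26 to 0.39, GDF3 from -0.27 to 0.15 (0.07 thinned), INHBA from -0.27 to 0.05, INHBE from -0.15 to 0.25 and FST from -0.1 to 0.09 (0.01 thinned). The cause of these differences was not tested, beyond the fewer libraries or counts that the settings themselves use. The shallowest library held 17 counts of INHBA, 30 of NODAL and 44 of CER1, the fewest of the 10 genes there.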

Other observations

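For each gene called against sO-L1 both with and without the block, which leaves out LEFTY2, the genes with the most similar pattern over the 6 libraries were found. By Pearson's r of log2 CPM, as a description over 6 libraries that share group and replicate structure, the genes most like INHBA were AXL, a receptor tyrosine kinase (r = 0.9989), and ATF3, a stress-induced transcription factor (0.9982). Those most like FST were SNHG7 (0.9988), ENC1 (0.9955) and DUSP4, a MAP kinase phosphatase (0.9954). Those most like INHBE were AC093627.9 (0.9969), MIER3 (0.9956) and BRSK1 (0.9943). Those most like SMAD7 were AP001469.9 (0.9972), the glucose transporter gene SLC2A3 (0.9969) and KIAA0907 (0.9969). Those most like LEFTY1 were PLBD1 (0.9953), GRM8 (0.995) and S100A16 (0.9932). The measure takes no account of size: in ASO-L1 against sO-L1 the log2 fold change of S100A16 was -0.13 (edgeR adjusted p = 0.249), of GRM8 -0.4 (0.0756), of BRSK1 0.18 (0.0541) and of MIER3 0.17 (0.00841).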
